A study of Mus musculus with 50 samples.

Results

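Hsp90ab1 and Hspb1 are 2 of the 1000 gene targets read by spatial molecular imaging on sections of aged mouse liver. They were selected on measured values, namely their levels across cell groups, across nuclear area and between the genotypes in each tissue area, so these values are described here without a test. Hsp90ab1 encodes the constitutive cytosolic form of HSP90, and Hspb1 encodes a small heat shock protein, the mouse counterpart of human HSP27. In the annotation of GRCm38, Hsp90ab1 (ENSMUSG00000023944.14) lies on the minus strand of chromosome 17 at chr17:45567775-45573271, and Hspb1 (ENSMUSG00000004951.10) lies on the plus strand of chromosome 5 at chr5:135887919-135889563.

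Heat shock proteins keep other proteins folded. HSP90 is an abundant ATP-driven chaperone that holds client proteins, among them steroid hormone receptors and kinases, in a form that can be activated, whereas HSPB1 is a small chaperone that binds unfolding proteins without using ATP and also associates with the actin cytoskeleton. Under stress, heat shock factor 1 binds heat shock elements, which are inverted repeats of the bases GAA, in the promoters of these genes, while HSP90 beta is also made in unstressed cells.

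The study asked how the loss of HIRA, which deposits histone H3.3 in active chromatin, changes the aged liver. HIRA KO mice were C57BL/6 animals carrying HIRA fl/fl alleles, and control mice were wild-type C57BL/6 animals. Both groups received AAV8-TBG-Cre when 6 months old and were kept for a further 12 months, so that all livers were from 18-month-old mice and all had been exposed to the virus and to Cre. The TBG promoter drives Cre in hepatocytes. Formalin-fixed sections with 50 fields of view, 25 per genotype, formed 6 tissue areas on 1 slide, 3 of each genotype. The design text gives 3 mice per genotype but the labels assign no mouse to a field of view, so the tissue area was the replicate and a spread between areas may be less than that between animals. The 2 genotypes occupied opposite sides of the slide, so that genotype and side of the slide cannot be told apart. Hira itself was not among the targets, and the deletion was not checked here.

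Of 52132 segmented cells, 49665 were kept, and each belonged to 1 area through its field of view. The areas held between 718991 and 1542205 gene counts. Depth differed between the genotypes, since control areas held 6.17 to 8.62 gene counts per 1000 square pixels of cell area and HIRA KO areas 10.3 to 11.2. Levels are therefore given as counts per 1000000 gene counts of the same cells (CPM), and values per cell area are set beside them where they differ. CPM are relative to the other targets, and in all cells as in hepatocyte-like cells the median target was 0.12 lower on the log2 scale in HIRA KO than in control areas. In values summed over all cells, fewer cells of a type and less RNA per cell cannot be told apart.

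To show the one stretch of sequence in which heat shock elements of a member could be sought, the RefSeq promoter of Hspb1 was searched over the 250 bases before its start for GAANNTTC and for TTCNNGAA, both of which read the same on either strand. Hspb1 held 2 matches, which begin 117 and 97 bases before the start. The 28 bases that span both, on the plus strand of GRCm38.p6 at chr5:135887802-135887829, are shown with the matches in capitals.
Hspb1: GAAGTTTCcagatgggggcaGAACCTTC
Of the 32851 promoters in the table, 12.8% held at least 1 match and 1.46% held at least 2. Among the 9 heat shock genes of the panel's cytosolic and mitochondrial list, 6 had a promoter in the table, and 3 of these held a match, with 1 match each in Hspa1a and Hspa1b, which encode inducible HSP70. Bag3, Fkbp5 and Ptges3 held none. The promoters of Hsp90ab1, Hsp90aa1 and Cryab were not analysed here. A match is a string of letters in this window and was not tested as a binding site.

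Summed over all kept cells, both genes were measured above background. Hsp90ab1 had 16074 counts in the kept cells, which ranked 44th among the 1000 targets and was 4.199 times the count of the highest of 10 negative probes (3828 counts). Hspb1 had 7351 counts, ranked 205th, and was 1.92 times the highest negative probe. Hspb1 thus lay much nearer to the background than Hsp90ab1, which bears on every ratio given for it. In hepatocyte-like cells, 29.9% of cells had at least 1 count of Hsp90ab1, 13.6% at least 1 of Hspb1 and 7.41% at least 1 of a given negative probe. Of all 1000 targets, 757 lay above the highest negative probe, and ranks below are among these unless stated.

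Cells were grouped without using either gene, and 8 classes could be named from their markers, of which the hepatocyte-like class was the largest with 14580 cells. A further 13845 cells stayed unnamed. Hsp90ab1 was broadly even across them. Its mean over the 6 areas was 2748 ± 984 CPM (SD, n = 6) in B-lineage-like cells, 2651 ± 555 in cholangiocyte-like, 2432 ± 560 in myofibroblast-like, 2468 ± 599 in T/NK-like, 2299 ± 475 in hepatocyte-like, 2274 ± 400 in endothelial-like, 2204 ± 375 in Kupffer-like and 2102 ± 462 in stellate-like cells. No class in this order, which is that of the mean log2 CPM, differed from the next beyond the spread of the paired differences between areas. The first and the last differed by 0.38 ± 0.34 on the log2 scale, with the first higher in 5 of 6 areas, and B-lineage-like cells numbered only 22 in control area 2.

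Hspb1 varied more between classes. It was highest in myofibroblast-like cells, the contractile cells of vessel walls and scars that were led by Acta2, Tagln and Myl9, with 2234 ± 612 CPM (SD, n = 6). Cholangiocyte-like cells, which line the bile ducts, had 1490 ± 308 CPM, endothelial-like cells 1368 ± 136 and stellate-like cells 1337 ± 129. T/NK-like cells had 1057 ± 364 CPM, hepatocyte-like cells 1036 ± 280, B-lineage-like cells 1030.1 ± 481 and Kupffer-like cells 953 ± 85.9. Only the step from myofibroblast-like to cholangiocyte-like cells was larger than its spread, with 0.59 ± 0.24 on the log2 scale and the same direction in 6 of 6 areas. Myofibroblast-like cells exceeded Kupffer-like cells by 1.21 ± 0.41 on the log2 scale, again in 6 of 6 areas. The myofibroblast-like class was small, with 64 to 189 cells and 10 to 56 Hspb1 counts per area. When each cell instead took the class of its highest marker score, which put 499 to 920 cells per area in it, the level of Hspb1 was 1334 ± 177 CPM, close to the 1292.5 ± 135 CPM of endothelial-like cells under that setting. The lead of this class thus depended on how cells were assigned to it.

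**Figure D1:**
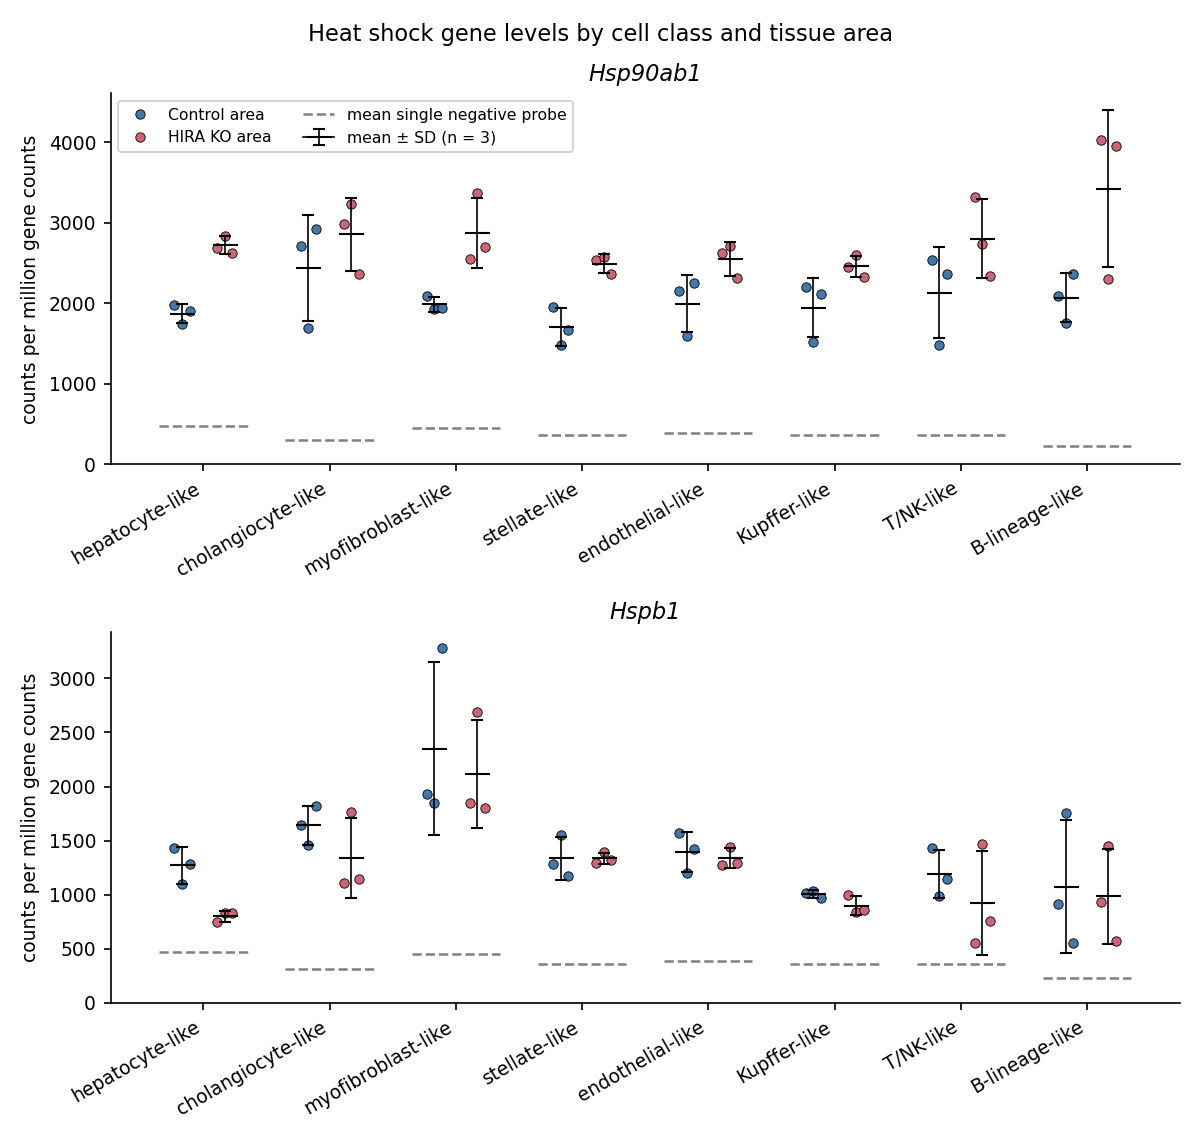
Each point is 1 tissue area, with CPM on the linear vertical axis and the 8 named cell classes on the horizontal axis. Horizontal bars are the mean of 3 areas, whiskers are 1 SD, and dashed lines mark the mean of a single negative probe in that class. Hsp90ab1 was broadly even across classes and higher on average in HIRA KO areas, with overlap in cholangiocyte-like, T/NK-like and B-lineage-like cells. Hspb1 was highest in myofibroblast-like cells under this assignment of cells and separated by genotype in hepatocyte-like cells.

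The mean log2 CPM of the 2 genes over the 8 classes had a correlation of r = 0.078. The targets whose pattern was most like that of Hsp90ab1 were Ifna (r = 0.869), the panel target for type I interferons, Cd24a (r = 0.868), a surface protein used here as a cholangiocyte marker, Trp53 (r = 0.847), which encodes the tumour suppressor p53, Gdf15 (r = 0.846), a stress-induced cytokine, and Ppia (r = 0.832), which encodes cyclophilin A. Those most like Hspb1 were Tsc22d1 (r = 0.936), Lmna (r = 0.924), which encodes lamins A and C, Tpm1 (r = 0.910), a tropomyosin of the actin cytoskeleton and a leading gene of the myofibroblast-like cluster, Ccl22 (r = 0.897), a chemokine, and Jag1 (r = 0.888), a Notch ligand. These correlations are over 8 points that share the same 6 areas, and the highest of 757 targets are necessarily high.

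Between the genotypes the 2 genes went in opposite directions. Over all cells, Hsp90ab1 had 1953, 1609 and 1985 CPM in the control areas and 2747, 2662 and 2631 CPM in the HIRA KO areas. The groups did not overlap, and the means were 1849 ± 208 and 2680.3 ± 59.98 CPM (SD, n = 3 each), a ratio of 1.45. Of the 757 targets, 2.77% were separated in this direction. Hspb1 had 1303, 1177 and 1231 CPM in the control areas and 911, 1089 and 883 CPM in the HIRA KO areas. The groups again did not overlap, the means were 1237 ± 63.4 and 961 ± 112 CPM and the ratio was 0.777, but 18.9% of the targets were separated in that direction. The mean of a single negative probe was 420.4 ± 49.2 CPM in control and 424.5 ± 24.7 CPM in HIRA KO areas. Since both genes were chosen with this contrast known, nothing is read from their position against these shares.

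The single fields of view showed the same picture. Hsp90ab1 ran from 1151 through a median of 1884 to 2634 CPM over the 25 control fields, and from 1924 through 2639.6 to 3329.8 CPM over the 25 HIRA KO fields. All 25 HIRA KO fields were above the control median, and 13 were above every control field. Hspb1 ran from 847 through 1215 to 1624 CPM in control and from 561 through 943 to 1291 CPM in HIRA KO fields, where 23 of 25 were below the control median and 4 were below every control field. Fields of 1 area share their section and are not replicates.

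In hepatocyte-like cells, the type in which the TBG promoter drives Cre, the 2 genes also separated the genotypes in opposite directions. Hsp90ab1 had 1979.9, 1744 and 1902 CPM in the control areas and 2695, 2844 and 2628 CPM in the HIRA KO areas. The groups did not overlap, with means of 1875 ± 120.2 and 2722.5 ± 110.4 CPM (SD, n = 3 each) and a ratio of 1.45, and 3.43% of targets lay above in the same way. Hspb1 had 1431, 1096 and 1286 CPM in the control areas and 745, 829 and 830.4 CPM in the HIRA KO areas. All HIRA KO areas were again lower, with means of 1271 ± 168 and 801 ± 49.3 CPM and a ratio of 0.631, in a class where 22.2% of targets lay below in the same way. After subtraction of the mean negative probe, Hspb1 came to 811 CPM in control and 317 CPM in HIRA KO areas, a ratio of 0.391. In the HIRA KO areas Hspb1 had 250, 547 and 576 counts, against 236, 422 and 425 for the highest negative probe. This ratio therefore depends on which probe is taken as background.

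Fitted across all targets with edgeR, the log2 fold change of HIRA KO over control in hepatocyte-like cells was 0.66 (SE 0.14) for Hsp90ab1, the 8th highest of 998 targets, and -0.52 (SE 0.12) for Hspb1, the 995th. Over all cells it was 0.65 (SE 0.17) for Hsp90ab1, rank 15, and -0.25 (SE 0.12) for Hspb1, rank 971. Per cell area the picture changed for Hspb1. In hepatocyte-like cells Hsp90ab1 had 12.2 ± 2.42 counts per megapixel of cell area in control and 25.4 ± 3.34 in HIRA KO areas, with no overlap, as for 24.8% of targets per cell area, but Hspb1 had 8.17 ± 1.24 and 7.51 ± 1.22, which overlapped. Over all cells Hspb1 per megapixel was 8.72 ± 1.30 in control and 10.4 ± 1.25 in HIRA KO areas, so that the sign of its difference turned. The lower level of Hspb1 in HIRA KO areas was therefore a lower share among the decoded transcripts, beside the greater depth of those areas, whose part was not tested.

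In the other classes, Hsp90ab1 was higher in HIRA KO on average in every named class. All HIRA KO areas were above all control areas in stellate-like cells (1708 ± 236 against 2495 ± 116 CPM, where 5.15% of targets did so), myofibroblast-like cells (1989.6 ± 92.1 against 2875 ± 433 CPM, 5.28%), endothelial-like cells (1997 ± 355 against 2552 ± 207 CPM, 3.43%) and Kupffer-like cells (1948 ± 369 against 2460.1 ± 136 CPM, 3.43%). The groups overlapped in cholangiocyte-like, T/NK-like and B-lineage-like cells. The fitted log2 fold changes were 0.58 (SE 0.20) in stellate-like, 0.43 (SE 0.25) in T/NK-like, 0.39 (SE 0.20) in endothelial-like, 0.39 (SE 0.20) in Kupffer-like and 0.22 (SE 0.25) in cholangiocyte-like cells. Leaving out control area 2 moved the fit to 0.05 in cholangiocyte-like, 0.23 in T/NK-like, 0.22 in Kupffer-like and 0.24 in endothelial-like cells, and leaving out control area 3 moved it to 0.39 in cholangiocyte-like cells. Per cell area, HIRA KO areas were above control areas without overlap in all 8 named classes, but many targets behaved so at the greater depth of those areas. The share of targets was 34.7% in endothelial-like, 22.7% in Kupffer-like, 44% in stellate-like, 23.9% in myofibroblast-like, 25.6% in cholangiocyte-like, 47.6% in T/NK-like and 25.4% in B-lineage-like cells. Whether cells of these classes had carried Cre was not analysed here. Segmented cells share transcripts with their neighbours, and the part of transcripts from adjacent hepatocytes in these values was not tested, nor was the difference between classes.

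In CPM, Hspb1 did not separate the genotypes in any named class other than hepatocyte-like cells. Its means were 1335.5 ± 198 CPM in control and 1339 ± 51.2 CPM in HIRA KO areas in stellate-like cells, and 1398 ± 186 and 1338 ± 92.8 CPM in endothelial-like cells. Myofibroblast-like cells had 2352 ± 802 CPM in control and 2116 ± 500.4 CPM in HIRA KO areas. The fitted log2 fold changes were 0.07 (SE 0.18) in stellate-like, -0.02 (SE 0.17) in endothelial-like, -0.12 (SE 0.18) in Kupffer-like, -0.26 (SE 0.23) in cholangiocyte-like and -0.40 (SE 0.28) in T/NK-like cells. Those in T/NK-like and cholangiocyte-like cells rested on single areas, at -0.04 and -0.10 without HIRA KO area 1 and -0.88 and -0.51 without HIRA KO area 2. In cholangiocyte-like cells the fit was -0.15 without control area 3, in T/NK-like cells -0.24 without control area 1, and in Kupffer-like cells -0.04 without HIRA KO area 2. Per cell area the direction turned in endothelial-like cells, where every HIRA KO area was above every control area (10.8 ± 0.92 against 14.8 ± 1.82 counts per megapixel, where 34.7% of targets did so), and, with overlap, in Kupffer-like, T/NK-like, cholangiocyte-like, myofibroblast-like and B-lineage-like cells, with ratios of 1.17, 1.23, 1.05, 1.31 and 1.47. The difference between hepatocyte-like and other cells was not tested, and each of these values has a standard error that allows a change in either direction or none.

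The hepatocyte-like class held 4 clusters, and different clusters made up most of it in the 2 genotypes. The cluster led by Neat1, Vegfa and Clec2d had 684, 1158 and 1280 cells in the control areas against 493, 466 and 452 in the HIRA KO areas, and only 1 of its 10 leading genes was a hepatocyte marker. The cluster led by Ttr, Gc and Arg1, which encode secreted carrier proteins and a urea cycle enzyme, had 25, 66 and 55 cells in the control areas against 353, 1414 and 1444 in the HIRA KO areas. The 2 genes were therefore also compared within clusters.

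Hsp90ab1 was highest in the cluster led by Glul, the glutamine synthetase of hepatocytes around the central vein, and in that led by Ttr, Gc and Arg1. In the cluster led by Glul it had 2346, 2371 and 2779 CPM in the control areas and 4048, 3642 and 3269.8 CPM in the HIRA KO areas. The groups did not overlap, the ratio of the means was 1.46 and 6.08% of targets lay above in the same way. In the cluster led by Apoa1, Arg1 and Ttr, where the control areas were close together, it was 2002 ± 16.1 against 2512 ± 77.8 CPM (ratio 1.25, 6.08% of targets above), and in the cluster led by Neat1 1658 ± 221 against 2079 ± 123 CPM (ratio 1.25, 4.1% above). In the cluster led by Ttr, Gc and Arg1 the groups overlapped, at 2689 ± 353 and 3099 ± 351 CPM (ratio 1.15). In 3 of the 4 clusters the ratio was thus smaller than the 1.45 of the whole class.

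Hspb1 was also highest in the cluster led by Glul, with 1748, 1186 and 2004 CPM in the control areas and 1104, 1185 and 1044.5 CPM in the HIRA KO areas. The highest HIRA KO area lay just under the lowest control area, the ratio was 0.675 and 6.08% of targets lay below in the same way. In the cluster led by Neat1, all HIRA KO areas were below all control areas (1274 ± 46.5 against 899.5 ± 165 CPM, ratio 0.706, 8.06% of targets below). Its HIRA KO areas held 53, 97 and 100 Hspb1 counts, against 56, 78 and 75 for the highest negative probe. The groups overlapped in the cluster led by Apoa1 (1079.6 ± 413 and 836 ± 58.5 CPM) and in that led by Ttr, Gc and Arg1 (934 ± 459.5 and 690.1 ± 82.6 CPM), where the control areas held 5 to 11 Hspb1 counts. Per cell area Hspb1 overlapped in all 4 clusters, with 8.48 ± 2.71 against 8.82 ± 2.23 counts per megapixel in the cluster led by Neat1 and 11.5 ± 0.82 against 11.3 ± 0.88 in that led by Glul, whereas every HIRA KO area was above every control area for Hsp90ab1 in all 4. Of all targets, 44.6% lay above in this way in the cluster led by Apoa1, 25.5% in that led by Neat1, 26.2% in that led by Ttr, Gc and Arg1 and 29.1% in that led by Glul.

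**Figure D2:**
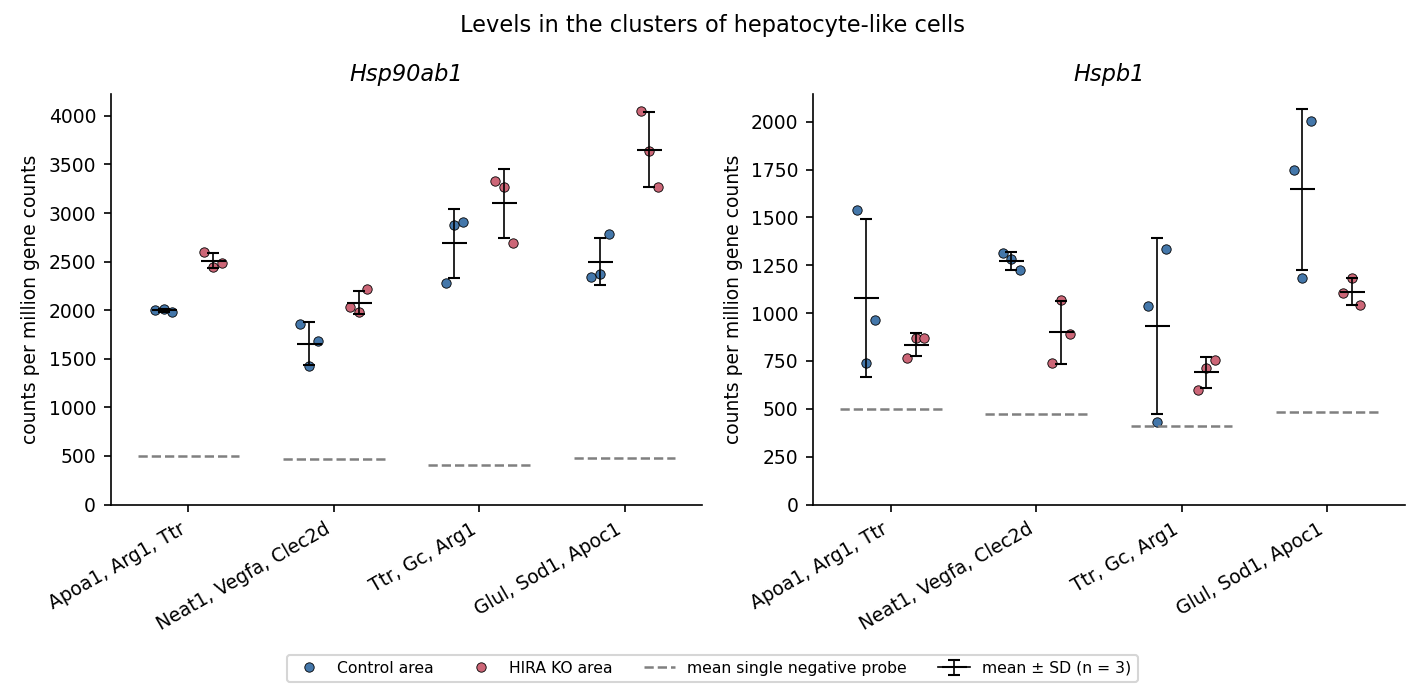
CPM of Hsp90ab1 (left) and Hspb1 (right) in each tissue area, by cluster of hepatocyte-like cells named by its 3 leading genes. Points are areas, bars and whiskers are the mean and SD of 3 areas, and dashed lines mark the mean of a single negative probe. Hspb1 had its highest means in the cluster led by Glul in both genotypes, and the control areas of the cluster led by Ttr, Gc and Arg1 rest on 25 to 66 cells each.

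Each decoded transcript was assigned to the nucleus or to the rest of its cell. Here the 2 genes fell on opposite sides of the panel. This share was not itself used in the choice of the genes, but nuclear area was, and the share may not be independent of it. In hepatocyte-like cells, 38.1%, 31.5% and 35.1% of Hsp90ab1 transcripts lay in the nucleus in the control areas and 30.6%, 29.7% and 27.8% in the HIRA KO areas. Hspb1 had 70.9%, 78.5% and 61.0% in the control areas and 64.4%, 66.2% and 59.5% in the HIRA KO areas. All other targets together had 51.8%, 51.6% and 46.97% in the control areas and 41.4%, 41.5% and 39.7% in the HIRA KO areas. In each of the 6 areas Hsp90ab1 was thus below and Hspb1 above the pooled other transcripts of the same cells. In this pool each target weighs by its counts, so abundant mRNAs weigh most. The number of other targets that differed from the pool in all 6 areas was not counted.

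The difference to the other targets was -13.4 ± 3.43 percentage points for Hsp90ab1 (SD, n = 6, lower in 6 of 6 areas; exact two-sided sign-flip permutation test, p = 0.03125, adjusted p = 0.05 over 8 tests). For Hspb1 it was 21.3 ± 4.58 percentage points (higher in 6 of 6 areas, n = 6; the same exact test, p = 0.03125, adjusted p = 0.05). This p is the smallest that 6 areas can give, and the adjusted value stands at the threshold. Nuclear area was part of the choice and other targets were not counted, so no trait particular to these genes is shown. Without any 1 area the difference stayed between -13.9 and -12.0 points for Hsp90ab1 and between 20.1 and 22.7 points for Hspb1, where 5 areas cannot give an exact p below 0.0625.

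Outside hepatocyte-like cells the same direction is given as a description. Hsp90ab1 was less nuclear than the other targets in 6 of 6 areas in Kupffer-like cells, with a difference of -8.24 ± 3.51 points, and in cholangiocyte-like cells, with -13.2 ± 4.33 points. Hspb1 was more nuclear in 6 of 6 areas in Kupffer-like cells, where 78.2 ± 2.42% of its transcripts were nuclear, and in endothelial-like cells, with 72.2 ± 3.07%. It was more nuclear in 5 of 6 areas in T/NK-like, cholangiocyte-like and myofibroblast-like cells, and in myofibroblast-like cells Hsp90ab1 was less nuclear in only 5 of 6 areas (-8.25 ± 7.59 points). Over all segmented cells, Hsp90ab1 with 36.2% ranked 31st from the lowest of 757 targets and Hspb1 with 69.2% ranked 749th, against a median of 50.6%.

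Known transcripts set the scale of this measure. Neat1, a long non-coding RNA retained in the nucleus, was the most nuclear target with 89.1%, while the abundant mRNAs of secreted proteins Ttr and Apoa1 had 23.03% and 25.7%. Negative probes had 28.9%. Among the other cytosolic heat shock genes above the highest negative probe, Hspa1b had 64.7%, Hsp90aa1 55.3%, Cryab 54.4%, Ptges3 53.8% and Bag3 50.7%, so that 0 of 5 lay above Hspb1 and 0 of 5 below Hsp90ab1. Hsp90aa1, which encodes the stress-induced form of cytosolic HSP90, thus differed from Hsp90ab1 in where its transcripts were decoded. Of 14 measured HSP90 clients, which ranged from 33.1% to 59.2%, only Pgr lay below Hsp90ab1.

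The difference between genotypes was taken in each compartment. Among the nuclear transcripts of hepatocyte-like cells, Hsp90ab1 had 1313 ± 216 CPM in control and 1958 ± 103 CPM in HIRA KO areas (ratio 1.49), and among the transcripts outside the nucleus 2446 ± 109 and 3251 ± 144 CPM (ratio 1.33). The groups did not overlap in either compartment. Hspb1 had 1765 ± 165 and 1242 ± 82.7 CPM among nuclear transcripts (ratio 0.704, all HIRA KO areas below). Outside the nucleus it had 766 ± 245 and 496 ± 54.2 CPM (ratio 0.648), where the groups overlapped. How many other targets separated within a compartment was not counted. With both compartments together, 3.43% of targets lay above and 22.2% below in hepatocyte-like cells. The nuclear share of all other targets itself was 50.1 ± 2.74% in control and 40.9 ± 1.03% in HIRA KO areas, and its part in the share of either gene was not tested.

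Transcripts outside any segmented cell gave the mirror image. Hsp90ab1 had 5.82%, 7.73% and 9.18% of its transcripts outside cells in the control areas and 8.38%, 6.75% and 9.79% in the HIRA KO areas, against 5.63%, 5.45% and 7.77% and 7.70%, 6.10% and 8.40% for all other targets. Hspb1 had 4.13%, 3.26% and 5.57% in the control areas and 6.33%, 3.23% and 4.53% in the HIRA KO areas. Hsp90ab1 was above and Hspb1 below the pooled other targets in every area. The difference was 1.10 ± 0.75 points for Hsp90ab1 and -2.34 ± 0.93 points for Hspb1 (SD, n = 6; exact two-sided sign-flip permutation test, p = 0.03125 and adjusted p = 0.05 for each). The number of other targets that differed from the pool in every area was not counted here either. Neither difference is therefore shown to be particular to these genes. Nuclei mostly lie away from the cell border, so the shares in the nucleus and outside cells are not independent of each other. Among 757 targets, Hsp90ab1 with 8.02% ranked 665th and Hspb1 with 4.38% ranked 15th from the lowest, where the median was 6.69% and negative probes had 9.88%.

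**Figure D3:**
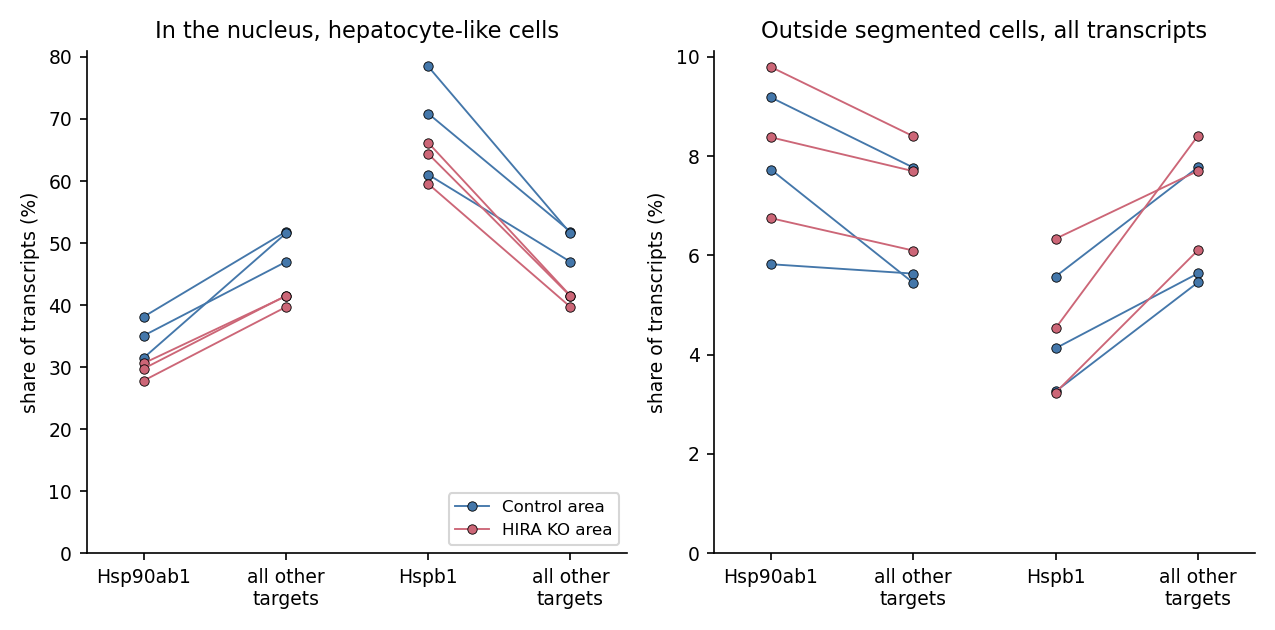
Share of transcripts in the nucleus of hepatocyte-like cells (left) and outside segmented cells (right), in percent, for each gene and for all other targets. Each line joins the 2 values of 1 tissue area. In all 6 areas Hsp90ab1 was less nuclear and more often outside cells than the other targets, and Hspb1 the reverse.

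Hepatocytes differ along the axis from the portal tract, where bile ducts run, to the central vein, and the position of hepatocyte-like cells was read in 2 ways. The first was the distance to the nearest of 674 cells high in Glul. Hsp90ab1 in the nearest tertile of cells over the farthest tertile came to log2 ratios of 0.27, 0.43 and 0.09 in the control areas and 0.10, -0.15 and 0.19 in the HIRA KO areas. It was higher near Glul-high cells in 5 of 6 areas, with a mean of 0.16 ± 0.19 (SD, n = 6), which did not pass (exact two-sided sign-flip permutation test, p = 0.125, adjusted p = 0.143). For Hspb1 the mean was 0.03 ± 0.22, with 4 of 6 areas above 0 (n = 6; exact p = 0.75, adjusted p = 0.75).

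The second was whether a cholangiocyte-like cell was among the 20 nearest cells, which held for 5491 hepatocyte-like cells and not for 9089. Hsp90ab1 beside such cells over elsewhere came to log2 ratios of -0.14, -0.06 and -0.25 in the control areas and -0.31, -0.26 and -0.20 in the HIRA KO areas. It was lower beside cholangiocyte-like cells in 6 of 6 areas, with mean levels of 2096 and 2435 CPM and a mean log2 ratio of -0.20 ± 0.09 (SD, n = 6; exact two-sided sign-flip permutation test, p = 0.03125, adjusted p = 0.05). How many other targets did the same was not counted, so this is not shown to be particular to Hsp90ab1. Hspb1 was lower in 5 of 6 areas, with a mean log2 ratio of -0.15 ± 0.18, which did not pass (n = 6; exact p = 0.125, adjusted p = 0.143).

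Markers of neighbouring cells and zones moved with this split. Spp1, the leading marker of cholangiocyte-like cells, had 539 CPM in hepatocyte-like cells beside them and 293 CPM elsewhere, and Krt18 had 1003 and 884 CPM. Glul had 2399.5 and 6206 CPM. The median counts per cell were 137 and 159, as means over the areas. In a setting added after seeing the data, the cluster led by Glul was left out. Hsp90ab1 was then lower beside cholangiocyte-like cells in 6 of 6 areas, with a mean log2 ratio of -0.16 ± 0.10 (n = 6; exact two-sided sign-flip permutation test, p = 0.03125, adjusted p = 0.05). The part of zone among the remaining cells was not tested. The part of transcripts passed between neighbouring cells was not tested.

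Nuclear area, which in liver goes with ploidy and with the plane of section, was part of the choice of the genes and is described without a test. Hsp90ab1 in the upper over the lower tertile of nuclear area came to log2 ratios of -0.14, -0.40 and -0.22 in the control areas and -0.09, -0.30 and -0.23 in the HIRA KO areas, and was lower in cells with large nuclei in 6 of 6 areas (mean -0.23 ± 0.11, SD, n = 6). For Hspb1 the ratios were 0.05, 0.72 and -0.24 in the control areas and 0.39, 0.16 and 0.09 in the HIRA KO areas, with a mean of 0.19 ± 0.33. Control area 2 gave the highest value, and without it the mean was 0.09. Cells in the upper tertile had a median of 253 counts against 81.2 in the lower tertile, as means over the areas, and Glul was 4068 against 7684 CPM, so that depth and zone moved with nuclear area. Neat1, retained in the nucleus, was 12837 against 8390 CPM and Ttr 44604.5 against 61084 CPM, so nuclear area and nuclear share may go together. Within clusters, weighted equally, the mean log2 ratio came to -0.06 for Hsp90ab1 and 0.02 for Hspb1.

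The genotypes were also set side by side within each tertile of nuclear area. Hsp90ab1 was higher in every HIRA KO area than in every control area in the lower, middle and upper tertile, with ratios of the means of 1.43, 1.498 and 1.46. Hspb1 was lower in the middle tertile (1198 ± 122 against 823 ± 104.3 CPM, ratio 0.687) and in the upper tertile (1349 ± 210.4 against 829.6 ± 17.8 CPM, ratio 0.615), without overlap. In the lower tertile control area 2 had 753 CPM, within the range of the HIRA KO areas, against 1532 and 1425 CPM in the other control areas. How many other targets separated within a tertile was not counted. In the whole hepatocyte-like class, 3.43% of targets lay above and 22.2% below in this way.

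**Figure D4:**
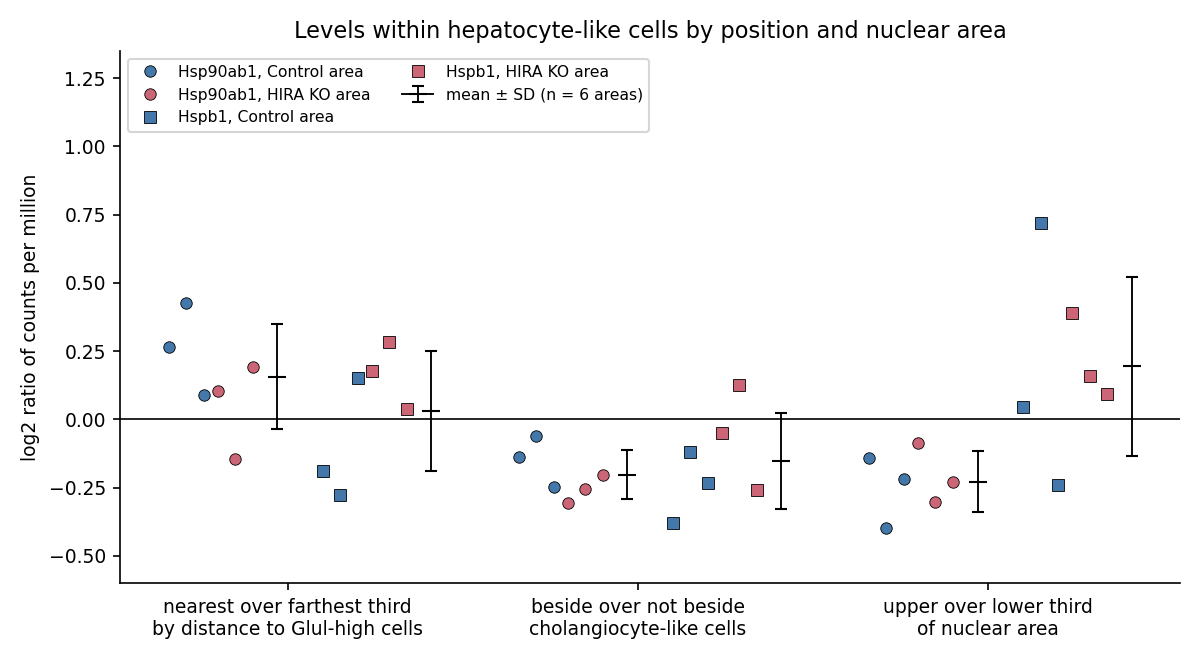
Log2 ratio of the CPM of Hsp90ab1 (circles) and Hspb1 (squares) between 2 sets of hepatocyte-like cells, for 3 ways of dividing the cells, with 1 point per tissue area and the mean and SD of 6 areas. Hsp90ab1 lay below 0 in all 6 areas beside cholangiocyte-like cells and in the upper tertile of nuclear area, while the values of Hspb1 spread over both sides of 0 in all 3.

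Other chaperone genes of the panel were read from lists by role, and none passed edgeR's test between genotypes. With edgeR's quasi-likelihood test and Benjamini-Hochberg adjustment over all targets, 0.201% of the 996 other targets were called over all cells (2 targets) and 0.703% in hepatocyte-like cells (7 targets). Of 7 further cytosolic and mitochondrial heat shock genes, 0 were called in either. By edgeR, 0 of them over all cells and 1 in hepatocyte-like cells had an unadjusted p below 0.05. Of the 996 targets, 72 over all cells and 114 in hepatocyte-like cells did so. DESeq2 called 0 of the 7 over all cells and 0 of the 5 to which it gave an adjusted p in hepatocyte-like cells. The median log2 fold change in hepatocyte-like cells by edgeR was 0.02 for this list and -0.01 for all targets.

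The 1 gene with a low unadjusted p was Bag3, a co-chaperone that links HSP70 to small heat shock proteins, with a log2 fold change of 0.29 (SE 0.13, edgeR adjusted p = 0.346). Hsp90aa1, the inducible counterpart of Hsp90ab1, had 1147, 1252 and 959 CPM in the control areas and 1090.0, 1242 and 957 CPM in the HIRA KO areas. Its areas overlapped almost completely, with a log2 fold change of 0.09 (SE 0.13, edgeR adjusted p = 0.860). Ptges3, the HSP90 co-chaperone p23, had 0.02 (SE 0.12, edgeR adjusted p = 0.980) and Cryab, the small heat shock protein alpha B-crystallin, -0.13 (SE 0.12, edgeR adjusted p = 0.734). The near-identical copies Hspa1a and Hspa1b, which can share probes, had -0.19 (SE 0.13) and 0.01 (SE 0.13) and are uncertain as single genes.

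The list for endoplasmic reticulum chaperones and the unfolded protein response held 4 unlike genes. Their log2 fold changes in hepatocyte-like cells ran from -0.15 to 0.53, with a median of 0.39. By edgeR 0 of 4 were called and 2 had an unadjusted p below 0.05, as had 114 of 996 targets. Hsp90b1, which encodes the HSP90 of the endoplasmic reticulum, had 2227, 2037 and 2364 CPM in the control areas and 3094, 3011 and 2692 CPM in the HIRA KO areas. All HIRA KO areas were above all control areas, as for 3.43% of targets in this class. The log2 fold change was 0.53 (SE 0.15) and edgeR's adjusted p was 0.137. DESeq2 gave an adjusted p of 0.0143 for Hsp90b1, its only call in the list, while it called 3.21% of the 686 targets to which it gave an adjusted p. Clu, the secreted chaperone clusterin and also a cholangiocyte marker, stood at 0.53 on the log2 scale (SE 0.18, edgeR adjusted p = 0.204), and Xbp1 and Ddit3, transcription factors of this response, had 0.24 (SE 0.12) and -0.15 (SE 0.14). Over all cells 0 of 4 were called by either tool and 1 had an unadjusted p below 0.05 by edgeR, as had 72 of 996 targets.

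Among 17 genes of HSP90 clients, 0 were called by edgeR over all cells (0.201% of all targets) or in hepatocyte-like cells (0.703%), shares so low that no call among 17 says nothing about the clients. Of the 17, 0 had an unadjusted p below 0.05 by edgeR in either, against 72 and 114 of 996 targets. Their median log2 fold change in hepatocyte-like cells was -0.003. DESeq2 called 0 of 17 over all cells and 0 of the 13 with an adjusted p in hepatocyte-like cells. Jak2, a cytokine receptor kinase, had -0.06 (SE 0.13), Braf, a kinase of the growth factor pathway, -0.18 (SE 0.12), and Akt1, a kinase of insulin signalling, 0.12 (SE 0.11). A change that these 6 areas could not separate from their spread is not shown to be absent.

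**Figure D5:**
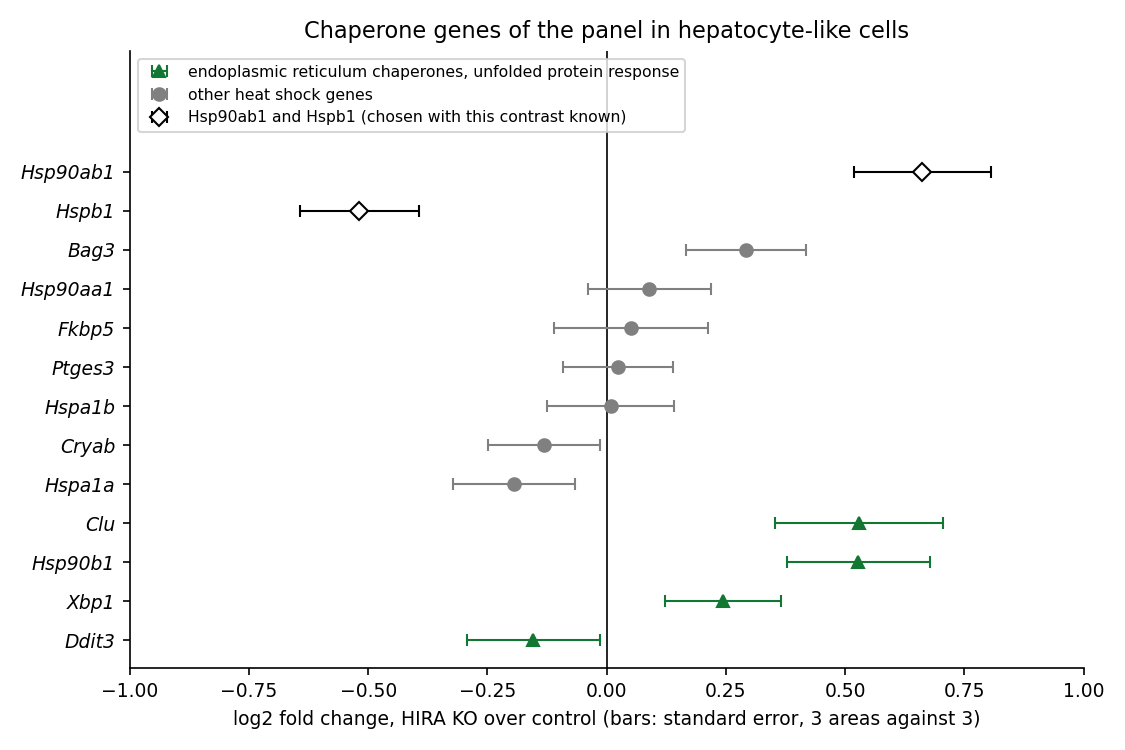
Fitted log2 fold change of HIRA KO over control in hepatocyte-like cells for 13 chaperone genes of the panel, with bars of 1 standard error from 3 areas against 3. Open diamonds are Hsp90ab1 and Hspb1, chosen with this contrast known, grey circles other heat shock genes and green triangles genes of the endoplasmic reticulum. Hsp90ab1 and Hspb1, which were not tested because of this choice, lay at opposite ends, at 0.66 and -0.52. None of the remaining genes shown was called by edgeR.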

How the data were processed

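The deposited values are unnormalized counts for each target in each segmented cell, with positions, cell areas and nuclear areas; software versions and pixel size are not given in the sources used here. Cells under 20 counts or over 5 times the geometric mean area were left out. Pearson residuals (theta 100, clip 10) without either gene gave 30 principal components, a graph of 20 neighbours and 18 Leiden clusters (resolution 1.6), of which 12 were named by at least 3 raised markers. Counts summed per area and class were fitted with edgeR's quasi-likelihood test (TMM, filterByExpr), where classes had at least 100 cells in every area. The median log2 fold change of all targets in hepatocyte-like cells was -0.01, against -0.13 with library-size scaling. The fit was tested on simulated counts with a spread that was set, not taken from the data. Of targets changed by 0.5 on the log2 scale, 64% over all cells and 51% in hepatocyte-like cells were called. Of those changed by 1, 100% were called in both. Exact sign flips over 6 areas were adjusted over 8 tests. Glul-high cells had at least 3 Glul counts making up 2% of the cell. Tertiles of nuclear area used cells with at least 10 nuclear transcripts. Areas are the replicates, so p-values measure the spread between areas. Both genes and all lists were chosen with earlier results of these data known. Genes named are the 5 most alike each gene and up to 5 genes per list with the highest counts, with Hspa1a, Fkbp5 and reference markers in addition. Tools were Python 3.11.15, scikit-learn 1.9.0, leidenalg 0.10.2, igraph 0.11.9, scipy 1.17.1, R 4.3.3, edgeR 4.0.16 and DESeq2 1.42.0. Promoters are from RefSeq and positions from GENCODE vM21.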

Additional observations from a re-analysis of the deposited data

How the results depend on the processing

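Settings marked as added were chosen after seeing the data. Of 126 values for the main results under other settings, 112 were unchanged, and of 156 values for single classes 136 were. For levels, fold changes and nuclear area, unchanged meant within 1 SD of the main value. A turn in sign counted as a change there only where the main value was itself larger than 1 SD. For the sign-flip measures it meant the same direction and call, and for the lists the same count of calls. The added values per cell area gave 1.16 (log2, HIRA KO over control) for Hsp90ab1 over all cells and 1.07 in hepatocyte-like cells, and for Hspb1 0.25 over all cells and 0.25 in Kupffer-like cells, both turned in sign, and -0.12 in hepatocyte-like cells; fits with no call also turned, to 0.45 in endothelial-like, 0.19 in T/NK-like and 0.04 in cholangiocyte-like cells. Added subtraction of the mean negative probe gave Hspb1 -0.61 over all cells, -1.35 in hepatocyte-like cells and a level of 564 CPM there. Added counting outside the nucleus gave Hsp90ab1 0.47 over all cells and 0.41 in hepatocyte-like cells. For Hsp90ab1 in hepatocyte-like cells, scaling by library size gave 0.54 and classes by marker score 0.51. By nuclear area, a convex hull gave Hsp90ab1 -0.11 and the added comparison within clusters -0.064. DESeq2 called 1 gene of the endoplasmic reticulum list. The causes of these shifts were not tested. Leaving out 1 area gave ranges of -0.23 to -0.18 (log2) for Hsp90ab1 beside cholangiocyte-like cells, -13.9 to -12.0 and 20.1 to 22.7 points for the nuclear shares, and 0.87 to 1.28 and -2.53 to -2.03 points for the shares outside cells, each with no pass because 5 areas cannot give a p below 0.0625. Hspb1 by distance to Glul-high cells ranged from -0.021, without HIRA KO area 2, to 0.091. No paired analysis was possible because the labels give the groups no shared replicate numbers. Slide row, a position, was run as a block: it called 0 genes of the 3 lists, as before, but 16 targets in place of 2 over all cells and 6 in place of 7 in hepatocyte-like cells. Low Hspb1 counts limit its ratios.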
